A study of Drosophila melanogaster with 3 samples.

Results

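The genes described here encode subunits and regulators of cohesin and condensin, the ring-shaped complexes that hold and fold chromosomes. They were chosen by name and number 10 of the 13968 protein-coding genes on the 7 chromosome arms. They are Nipped-B, vtd, SMC1, SMC3, SA, pds5, wapl, SMC2, glu and barr, and SA is the gene that the Release 6 annotation calls SA1 (FBgn0020616). For each gene, every peak summit inside the gene or within 5 kb of either end was collected from 5 peak lists on the assembly dm6.

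Cohesin consists of SMC1, SMC3 and a kleisin, vtd (also known as Rad21), which together close a ring around DNA, and of SA, which binds the kleisin. Nipped-B loads the ring onto chromosomes together with Mau2, pds5 regulates how long it stays there, and wapl releases it. Condensin uses the related subunits SMC2 and glu (the fly SMC4) and the kleisin barr, and compacts chromosomes for mitosis.

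The study mapped the chromatin protein Lhr (Lethal hybrid rescue), a partner of Hmr and of heterochromatin protein 1, by chromatin immunoprecipitation and sequencing (ChIP-seq). The material was whole Drosophila melanogaster embryos aged 0 to 14 hours, male and female pooled, from 1 transgenic line (strain Lhr-GFP) in which Lhr carries GFP at its C-terminus, called Lhr-eGFP here. An antibody against GFP was used on sonicated chromatin of 200 to 800 bp, in 3 biological replicates of 1 group, with no second genotype or condition. Every cell type of the embryo contributes to such a sample, so a peak cannot be assigned to any of them.

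The final list held 5190 peaks and is called the IDR list, after the irreproducible discovery rate, which scores whether replicates give a peak similar ranks. A combined relaxed list held 20761 peaks and the relaxed lists of replicates 1, 2 and 3 held 22598, 30000 and 18934. The IDR list had the same summits as the 5190 strongest peaks of the combined list, so a peak in it need not recur in each library. Libraries were therefore compared through their own 5190 strongest peaks, and signal, the enrichment value that the authors gave each peak, was read only as a rank within 1 list. The lists hold no read counts, so the depth is unknown and no interval can be put on a single peak. Across all IDR summits, 64.3% had a counterpart within 100 bp among the strongest peaks of all 3 libraries.

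Lhr-eGFP lay at the start sites of nearly all of these genes. An IDR summit within 500 bp of an own start site was found for 9 of the 10 genes (90.0%), against 29.2% of all protein-coding genes. SMC3 was the exception. The combined list gave the same 9 genes, against a background of 45.5%. Among the strongest peaks of single libraries the count was 8 in replicate 1, 8 in replicate 2 and 8 in replicate 3 (8.0 ± 0.0, SD, n = 3), with backgrounds of 26.6%, 31.2% and 29.1%. The equal counts came from unequal genes, since replicate 1 lacked SMC1, replicate 2 lacked vtd and replicate 3 lacked SA, and all of them lacked SMC3. In the complete relaxed lists the counts were 8, 10 and 8, against 42.6%, 54.5% and 45.2% of all genes.

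Genes whose start lies within 1000 bp of an oppositely transcribed gene carried summits more often than others across the genome, at 51.2% of 5052 genes with such a divergent partner and 16.8% of 8916 genes without one. Of the 10 genes, 7 have a divergent partner and 6 of those 7 were bound. The remaining 3, Nipped-B, vtd and wapl, have none and were all bound. Gene position and size gave backgrounds closer to the genome-wide share, with 40.5% of 247 pericentric genes and 39.9% of 3345 genes of 3 to 10 kb bound at a start site.

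**Figure D1:**
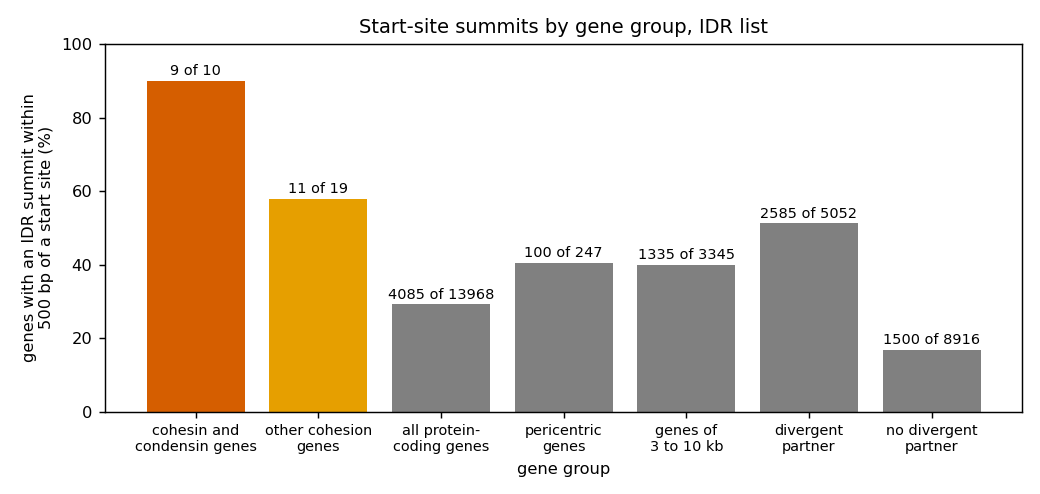
Share of genes (vertical axis, %) with an IDR summit within 500 bp of a start site, by gene group, with the number of bound genes over each bar. The 10 cohesin and condensin genes stood at 90.0%, the 19 other cohesion genes at 57.9% and all protein-coding genes at 29.2%.

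The ring subunits of cohesin were bound unevenly. The kleisin gene vtd (3L, 27136525 to 27157999, plus strand) had an IDR summit 62 bp upstream of its start, with signal 353.4 and rank 2065 of 5190. Replicate 1 placed that summit at −81 bp with rank 2393, replicate 2 at −59 bp with rank 5246 and replicate 3 at −62 bp with rank 1017. All 3 libraries thus had the peak, but its rank varied widely, and in replicate 2 it fell just outside the strongest 5190. The same summit also lay within 500 bp of the start of the noncoding gene lncRNA:CR45181, so the peak cannot be assigned to vtd alone. SMC1 (3R, 24058287 to 24062815, plus strand) had its IDR summit at −58 bp, with signal 242.5 and rank 3577. The library summits of SMC1 were at −53 bp with rank 2857 in replicate 2 and at −41 bp with rank 4229 in replicate 3. Replicate 1 had no summit of any strength in the 14529 bp of the gene and its flanks, so the IDR peak of SMC1 rests on replicates 2 and 3. The divergent neighbour of SMC1 is the heat shock gene Hsp68, whose start lies 977 bp upstream and had no IDR summit. SA (2L, 6950421 to 6954586, plus strand) had the weakest peak of the bound genes, at −71 bp with signal 174.1 and rank 5153 of 5190. Ranks were 4331 in replicate 1, at −69 bp, and 3535 in replicate 2, at −61 bp, and replicate 3 had no summit there in its relaxed list. That summit lies between SA and the divergent gene Gas41, 214 bp apart, and counts for both.

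The promoter sequences under these peaks differ in the words they hold, and some of them are given before the words are counted at all bound genes. For vtd, SMC1, SA, wapl and glu, the stretch from 80 bp upstream of the IDR summit to the last base before the start site is given 5′ to 3′ on the strand of the gene, read from the Release 6 genome (dm6). Capitals mark exact matches, on either strand, to TATCGATA (the DRE, bound by Dref), CGATA (the core word of the boundary protein BEAF-32, also contained in TATCGATA) and GGTCACACT (bound by M1BP). The intervals are chr3L:27136383-27136524 (plus strand) for vtd, chr3R:24058149-24058286 (plus) for SMC1, chr2L:6950270-6950420 (plus) for SA, chrX:2158984-2159123 (minus) for wapl and chr2L:16738389-16738509 (minus) for glu.
vtd: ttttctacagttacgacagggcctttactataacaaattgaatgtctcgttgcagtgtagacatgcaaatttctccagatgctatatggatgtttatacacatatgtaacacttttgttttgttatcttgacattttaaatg
SMC1: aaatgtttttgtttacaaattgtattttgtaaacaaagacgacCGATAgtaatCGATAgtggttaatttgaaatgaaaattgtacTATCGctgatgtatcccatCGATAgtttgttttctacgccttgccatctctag
SA: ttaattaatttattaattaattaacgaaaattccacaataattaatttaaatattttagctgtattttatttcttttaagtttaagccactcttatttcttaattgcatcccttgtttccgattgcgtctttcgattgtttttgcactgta
wapl: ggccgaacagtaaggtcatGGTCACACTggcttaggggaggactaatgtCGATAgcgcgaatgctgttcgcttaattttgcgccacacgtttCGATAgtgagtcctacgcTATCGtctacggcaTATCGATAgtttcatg
glu: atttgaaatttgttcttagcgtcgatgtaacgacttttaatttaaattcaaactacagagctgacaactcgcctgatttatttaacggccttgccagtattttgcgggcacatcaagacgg
In vtd and glu a match lies across or next to the start site, and these 30-base stretches are chr3L:27136515-27136544 for vtd and chr2L:16738372-16738401 for glu.
vtd start site: attttaaatgaTATCGATAatttgataaaa
glu start site: cacatcaagacGGTCACACTgctgatagcg
SMC1 holds 4 CGATA words and wapl holds 5, of which a pair overlap in its DRE, whereas the printed SA stretch holds none of the 3 words and is rich in A and T.

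Within 100 bp of the 9 start-site summits, TATCGATA occurred at 2 genes, vtd and wapl, against 7.21% of all IDR windows and 7.57% of the 13968 promoter windows of the same length. Its centre lay 5 bp downstream of the start of vtd and 13 bp upstream of that of wapl. GGTCACACT also occurred at 2 genes, wapl (−117 bp) and glu (+2 bp), against 6.59% of IDR windows and 4.23% of promoter windows. CGATA occurred at 5 genes, vtd, SMC1, wapl, SMC2 and barr, where 37.8% of IDR windows and 38.7% of promoter windows had it. Clusters of the word set SMC1 and wapl apart from the other members, since 3.55% of IDR windows had at least 4 copies and 1.23% at least 5. GAGAG, the GAGA factor word, occurred at Nipped-B, pds5 and wapl (19.3% of IDR windows and 23.0% of promoter windows). TATAAA occurred at vtd and pds5 (33.0% and 34.7%). CAGCTG, an E-box, and CAGGTAG, the Zelda word, occurred at none of the 9, where 10.6% and 0.751% of IDR windows, and 13.2% and 1.15% of promoter windows, had them. All words were searched on both strands, and a match describes the letters only.

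SMC3 (X, 16588996 to 16593439, minus strand), the remaining arm of the cohesin ring, had no IDR summit in the gene or within 5 kb. The nearest was at −5228 bp, at the start of CG9784, with signal 176.6 and rank 5080. Its divergent partner is the ubiquitin-conjugating enzyme gene Ubc7, 238 bp away. Only the relaxed list of replicate 2, the longest of the 3, had summits within 500 bp of the SMC3 start, the stronger at −249 bp and 11 bp from the Ubc7 start, with signal 43.0 and rank 6951 of 30000. Replicates 1 and 3 had none within 500 bp. The combined list had 3 summits in the window, with signals of 53.8, 91.4 and 94.7, below the lowest IDR signal of 172.8. A pair of these, one near the start of CanA-14F and one in a 3′ UTR upstream of SMC3, recurred in all 3 relaxed lists.

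Among the genes that load and remove cohesin, signal was highest at pds5 and Nipped-B. pds5 (2R, 12027985 to 12033725, plus strand) had the strongest start-site peak of all 10 genes, with signal 1181.1 and rank 116 of 5190. Its ranks were 107 in replicate 1, 145 in replicate 2 and 110 in replicate 3, and its summits lay at −170, −188 and −158 bp. Only 2.25% of the 4085 genes bound at a start site had a signal as high. The summit is 120 bp from the start of the divergent gene Mppe and 158 bp from that of pds5, so when each summit was given to its nearest start alone it went to Mppe. Nipped-B (2R, 4691672 to 4729017, minus strand), the loader gene, had its strongest summit at −39 bp, with signal 755.7 and rank 412. Replicates 1, 2 and 3 ranked it 493, 337 and 423 and placed it at −42, −32 and −42 bp. The libraries agreed on both rank and position there, with a mean distance of −38.7 ± 5.8 bp (SD, n = 3). wapl (X, 2149936 to 2158983, minus strand) had its summit at −60 bp of its upstream start site, with signal 390.2 and rank 1750. Library ranks of the wapl peak were 2248, 1666 and 1814, at −68, −61 and −65 bp. A downstream start site of wapl had no IDR summit, and the combined list had a peak of signal 125.2 (rank 7221) 262 bp upstream of it.

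All 3 condensin genes among the 10 genes were bound, against 29.2% of all protein-coding genes, at ranks among those of the cohesin genes. glu (2L, 16733617 to 16738388, minus strand) had its summit at −41 bp, with signal 423.0 and rank 1486. Library ranks were 1878, 1318 and 1693 for glu, with summits at −30, −38 and −31 bp. SMC2 (2R, 14848621 to 14852653, minus strand) had its summit at −85 bp, with signal 292.9 and rank 2786, between its own start and that of the DNA repair gene Ercc1. Ranks of 3171, 3501 and 2746 were found for SMC2, at −70, −43 and −88 bp. The kleisin gene barr (2L, 20058163 to 20061370, minus strand) differed in position. Its summit lay 176 bp downstream of its upstream start site, with signal 298.8 and rank 2693. The libraries placed it at 209, 152 and 174 bp, with ranks 3785, 2593 and 2272. A second start site of barr lies farther downstream, at 20060977, so the summit at 20061194 lay between the 2 starts and upstream of the second. In replicate 1 the summit was nearer to the second start, at 184 bp. barr begins 52 bp from lok, a checkpoint kinase gene, and a weaker combined summit (signal 134.5, rank 6706) lay between the pair, 34 bp upstream of barr.

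By rank, the order was pds5, Nipped-B, glu, wapl, vtd, barr, SMC2, SMC1 and SA. The library ranks of pds5 (107 to 145) and Nipped-B (337 to 493) did not overlap, nor did those of Nipped-B and glu (1318 to 1878). Each later neighbour in the order overlapped with the next, so the order between neighbours there does not exceed the spread between libraries. Genes farther apart could still differ. The library ranks of glu and of wapl (1666 to 2248) did not overlap those of barr (2272 to 3785), SMC2, SMC1 or SA. The start-site summit recurred among the strongest peaks of all 3 libraries in 6 of the 9 genes, Nipped-B, pds5, wapl, SMC2, glu and barr. The share over all IDR summits near protein-coding starts was 67.9%. With vtd added, 7 of the 9 genes had it in all 3 relaxed lists, where the share of such summits was 86.7%. Where a gene had a start-site summit in all 3 relaxed lists, the summits spanned 7 bp (wapl) to 57 bp (barr). The median span was 34 bp over the 3336 IDR summits with a counterpart within 100 bp among the strongest peaks of all 3 libraries. Of the 9 summits, 8 lay upstream of the start, all but that of barr as measured from its upstream start. Within 100 bp upstream lay 7 of the 9, and the median was −60 bp. All 3202 IDR summits near protein-coding starts had a median of −82 bp, with 89.2% of them upstream and 55.9% within 100 bp of the start on either side. Signal had a median of 353.4 over the 9 genes against 341.9 over all bound genes. The genes closest in signal to pds5 were CG6073 above it (1186.2) and CG11309 and CG7632 below it (1173.9). For Nipped-B they were CG11857 (756.6) above and CG1943 and Ufl1 (755.2) below.

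**Figure D2:**
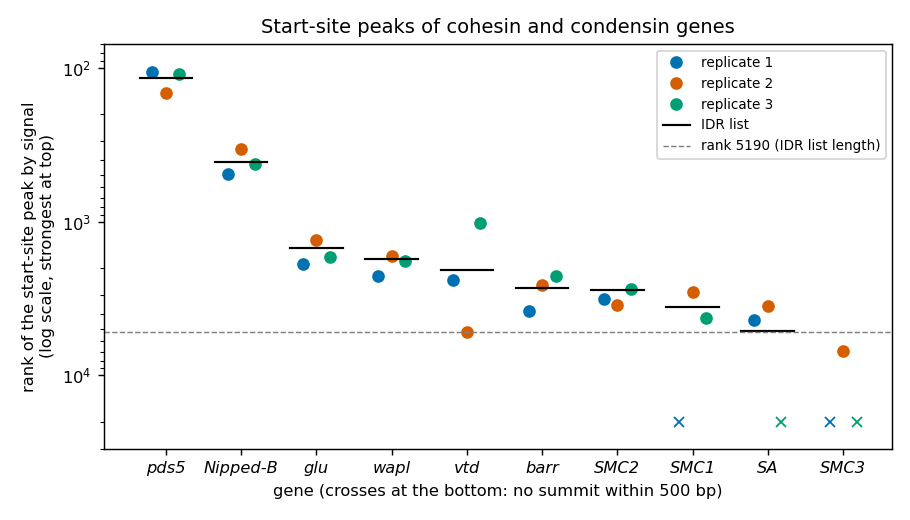
Rank of the start-site peak by signal (vertical axis, log scale, strongest at the top) for each gene, with 1 point per library and a bar for the IDR list. pds5 and Nipped-B stood apart from the rest in every library, vtd ranged from 1017 to 5246, and crosses mark libraries with no summit within 500 bp.

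Over whole genes and 5 kb to each side, 9 of the 10 genes had an IDR summit, against 57.3% of all protein-coding genes, and all 10 had one in the combined list, against 79.3%. The strongest peaks of each library gave 8, 8 and 8 genes, with backgrounds of 54.7%, 58.7% and 57.0%. The relaxed lists gave 9, 10 and 10, with backgrounds of 81.9%, 82.2% and 81.4%, which leaves little room above the background. These windows held 19 IDR summits, or 95.6 per Mb, against 62.3 per Mb over the windows of all protein-coding genes and 37.7 per Mb over the arms. Of the 19, 10 lay at own start sites, 8 at the starts of other genes only, and 1 in an intron. Over the whole IDR list, 36.0% of summits lay more than 500 bp from any annotated start site. In the genes themselves, without flanks, the density was 20.3 per Mb, close to the 23.7 per Mb over all protein-coding genes.

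**Figure D3:**
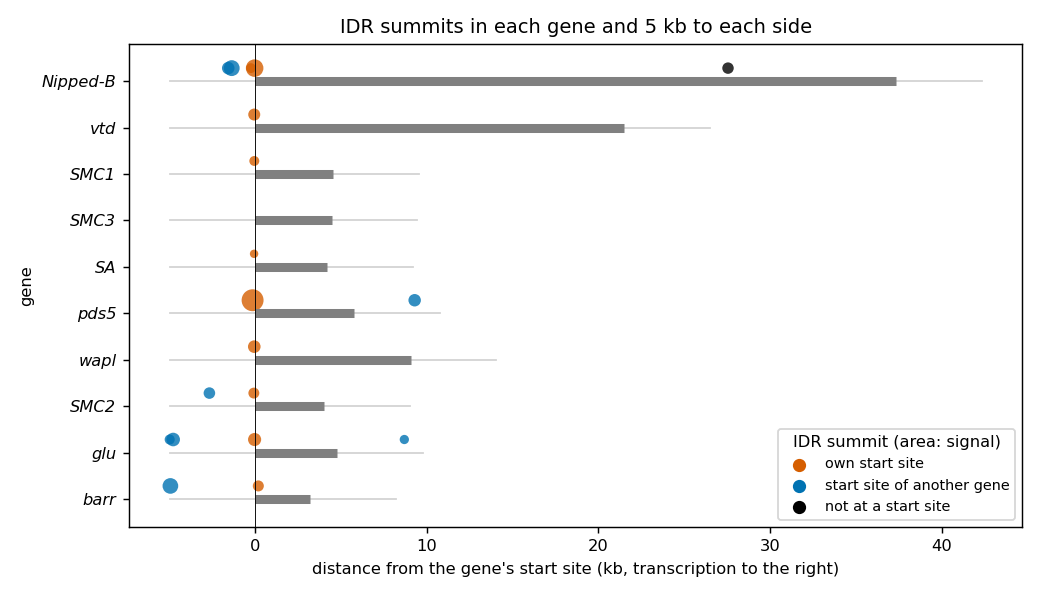
IDR summits against distance from the start site of each gene (kb, transcription to the right), with the gene as a thick bar, its 5 kb flanks as a thin line and circle area in proportion to signal. Of the 19 summits, 10 lay at own start sites, 8 at those of other genes and 1, in Nipped-B, at neither, and SMC3 had none.

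The summits at other genes lay in 5 windows. Upstream of Nipped-B, a peak at −1375 bp had signal 618.3 (rank 684) and one at −1578 bp had 384.6 (rank 1792), both at the start of the noncoding gene lncRNA:CR45471. The stronger of them ranked 528, 934 and 756 in replicates 1, 2 and 3. A peak at the starts of LSm7 and BuGZ, at −4787 bp from glu, had signal 453.7, with a weaker one at −4990 bp (248.5). A peak at the start of bwa, at −4949 bp from barr, had signal 602.3 (rank 733), above the 298.8 of barr itself. The windows of pds5 and SMC2 held a peak at the starts of 128up and CG43191 (381.7) and one at HPS1 and Ciao1 (328.3). Several came in close pairs, at −39 and −252 bp and at −1375 and −1578 bp for Nipped-B and upstream of glu, 203 to 213 bp apart. Over the IDR list no neighbouring summits were closer than 199 bp, and 300 pairs up to 300 bp apart had a median gap of 204 bp. Whether such a pair is a single broad enrichment was not tested.

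Nipped-B held 5 IDR summits, a number that 1.5% of all protein-coding genes reached. It is also the largest of the 10 genes, at 37346 bp, and the largest window. Its single intronic IDR summit lay 27551 bp downstream of the start, within an annotated INE-1 transposon, with signal 322.2 and rank 2418. Replicate 1 placed it at 27536 bp with rank 3064, replicate 2 at 27552 bp with rank 2126 and replicate 3 at 27539 bp with rank 2377. The libraries therefore agreed on a site inside a repeat, where such sites are few. In the whole IDR list, 33 summits (0.636%) lay in annotated transposons and 5 of them in INE-1 elements. Reads from repeated copies can align to more than 1 place, and how the authors treated them is not given in the sources used here.

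Nipped-B and vtd lie in pericentric sequence, the part of each arm next to the centromere that is rich in repeats and heterochromatin. Transposons covered 44.6% of the Nipped-B window and 8.8% of the vtd window. In the combined list Nipped-B had 37 summits, or 0.781 per kb, a density reached by 0.515% of all genes but by 11.7% of pericentric genes. vtd had 16, or 0.508 per kb, reached by 4.36% of all genes and 30% of pericentric genes. The medians were 0.165 per kb over all genes and 0.317 per kb over pericentric genes, so both genes were dense in weak summits, less unusually so among their pericentric neighbours. Replicates 1, 2 and 3 had 37, 35 and 34 summits at Nipped-B and 20, 20 and 17 at vtd. glu (0.474 per kb) and wapl (0.42 per kb) came next, and SMC1 (0.0688 per kb) was the lowest.

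**Figure D4:**
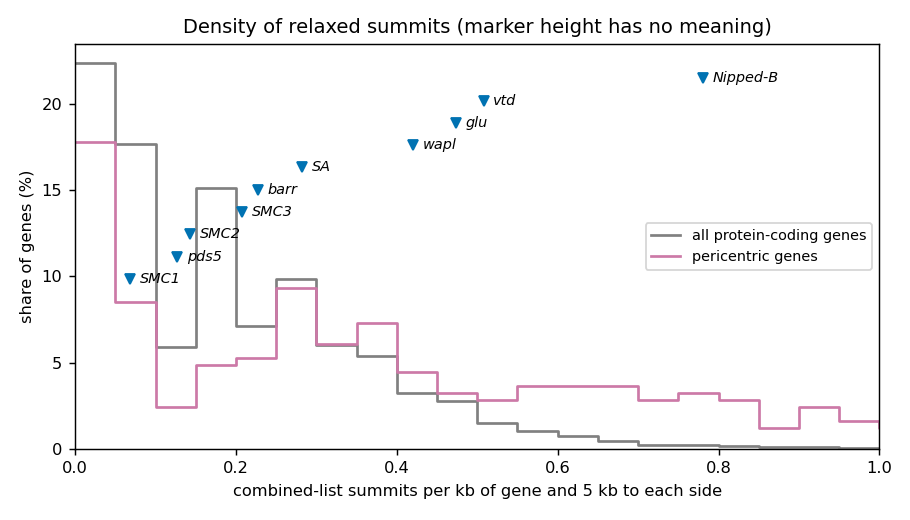
Distribution of combined-list summits per kb of gene and flanks (horizontal axis) over all protein-coding genes and over pericentric genes (vertical axis, share of genes in bins), with triangles at the 10 genes and the horizontal axis ending at 1.0 per kb. Nipped-B at 0.781 per kb and vtd at 0.508 per kb lay farthest to the right.

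The weak summits in these genes recurred in part. Of the 37 combined summits at Nipped-B, 24 were intronic and 15 lay in transposons. Setting aside the 5 IDR summits, 7 of 32 (21.9%) had a counterpart in all 3 relaxed lists, against 18.6% over the arms and 15.3% in pericentric sequence. For vtd the share was 5 of 15 (33.3%). A counterpart in at least 2 of the relaxed lists was found for 23 of the 32 at Nipped-B (71.9%) and 12 of the 15 at vtd (80%), against 55.6% over the arms and 56.6% in pericentric sequence. Among the 7 at Nipped-B, the strongest lay 29394 bp downstream of the start in another INE-1 element (signal 118.4). Among the 5 at vtd, the strongest lay 4208 bp downstream in an intron (signal 130.2), and another lay in a transposon at 12937 bp. Of the 32 at Nipped-B, 14 (43.8%) lay in transposons, against 16.5% in pericentric sequence and 4.77% over the arms, in a window of which 44.6% is transposon. A vtd summit at −2518 bp, with combined signal 166.4 and rank 5390, was among the strongest peaks of replicates 1 and 3. It had no counterpart within 100 bp in replicate 2, where the nearest summit lay at −2376 bp with rank 27810 of 30000.

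**Figure D5:**
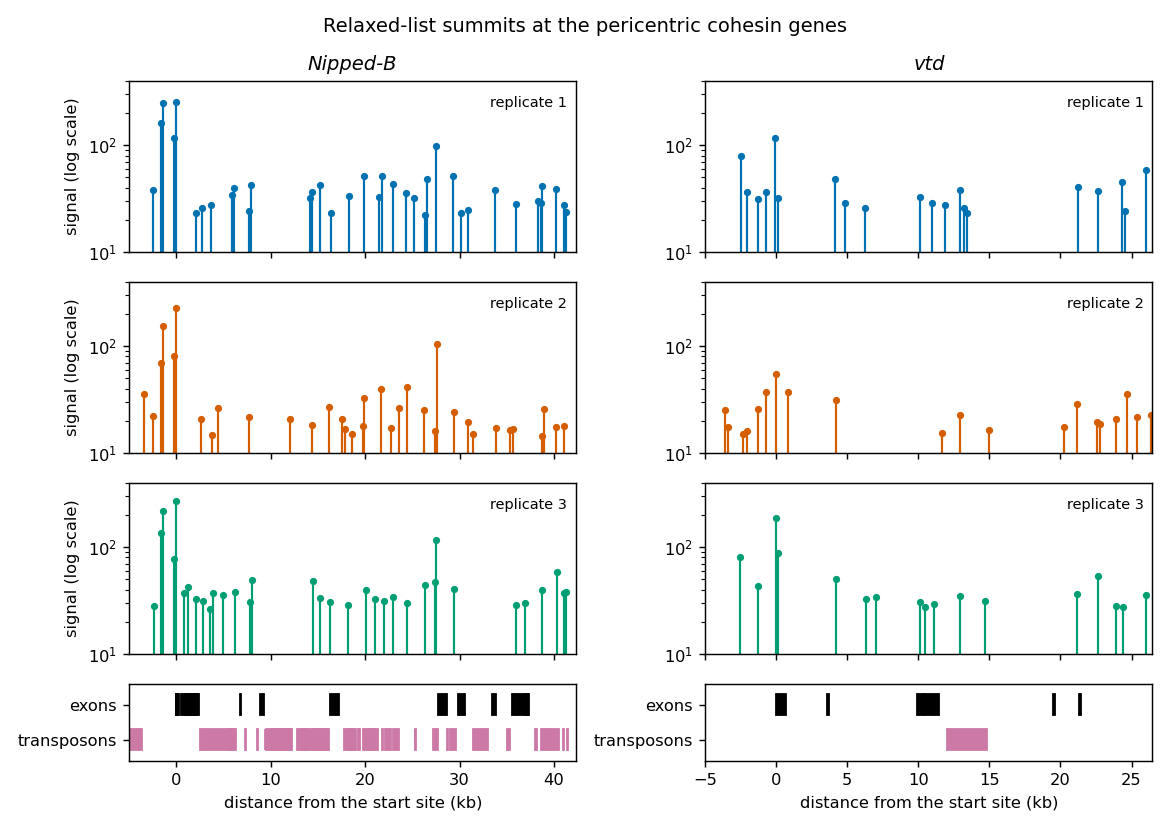
Relaxed-list summits of each library at Nipped-B and vtd against distance from the start site (kb), with signal on a log scale, over tracks of exons and transposons. Both genes had their highest signals at the start site. Nipped-B had further recurring sites at −1375 and −1578 bp and 27551 bp into the gene, among many weak summits.

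The related genes of chromosome cohesion and condensation showed a mixed pattern. Of 19 such genes, 11 (57.9%) had an IDR summit at a start site, against 29.2% of all protein-coding genes. The combined list gave 15, against a background of 45.5%. The strongest peaks of replicates 1, 2 and 3 gave 9, 10 and 11 (mean 10, SD 1.0, n = 3), with backgrounds of 26.6%, 31.2% and 29.1%. Both sets were chosen by name, so the difference from the 9 of 10 above was not tested. Bound were Mau2, the loading partner of Nipped-B (248.6), the condensin genes Cap-D2 (348.3) and Cap-H2 (338.3), and dmt, which protects cohesion (664.3, rank 578, the strongest of the 19). Also bound were mei-S332, the fly shugoshin (493.8), SMC6 (406.5) and SMC5 (222.7) of the SMC5/6 complex, and pim, the securin (319.8). The acetyltransferase eco (173.9), the meiotic kleisin c(2)M (316.1) and solo, which shares its start and summit with vas (345.1), were bound as well. Cap-D2 had no start-site summit in replicate 2 and c(2)M none in replicate 1. SMC5 fell outside the strongest peaks of replicate 1 (rank 5782). So did eco in replicates 2 and 3 (ranks 5212 and 15008). Without a start-site IDR summit were the condensin genes Cap-G and Cap-D3, the acetyltransferase san, and thr and Sse of the separase complex. The same held for SA-2, ord and sunn, which act in meiosis. Cap-D3 and san had an IDR summit farther off, at −1755 bp and −1461 bp. Cap-G, san, Sse and sunn had weaker start-site summits in the combined list. The summits of dmt, mei-S332, Cap-H2 and eco lay nearer to the starts of trbd, Vrp1, MED7 and lark, so these 4 genes lost their call when each summit was given to its nearest start alone. thr had summits among the strongest of replicate 2 (−34 bp, rank 2774) and replicate 3 (−31 bp, rank 3830), but none in the combined list.

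All 11 bound genes among these 19 had a divergent partner. Of the 13 with a divergent partner 11 were bound, against 51.2% of all protein-coding genes with one. Of the 6 without one 0 were bound, against 16.8% of all genes without one. This split rests on few genes, was looked at after the values were known and was not tested. The bound cohesin genes without a partner, Nipped-B, vtd and wapl, had no counterpart there. Median signal over the 11 bound genes was 338.3, close to the 353.4 of the 9 cohesin and condensin genes.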

How the data were processed

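The 3 libraries are separate biological replicates, per the labels. The deposited narrowPeak lists on dm6 were used. Per the text listings deposited with the libraries, each relaxed list came from the alignment of 1 library and 1 control alignment shared by all 3, and the IDR list was derived from these and the combined list. The signal of each peak is the enrichment value the authors deposited, with no common scale between lists. Of the aligner, the peak caller and its settings nothing is stated: each is not given in the sources used here. The p-value column holds no values, and the dm3 lists were not used.

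A summit is the peak start plus the deposited offset. Gene models were Ensembl release 115 for Release 6, the assembly dm6. A gene with a summit no more than 500 bp from an annotated start was called bound, and a summit counted for every such gene. Counterparts lay within 100 bp, divergent starts within 1000 bp. Pericentric parts began at 22.0 Mb (2L, X) and 23.0 Mb (3L) and ended at 5.4 Mb (2R) and 4.6 Mb (3R). Distances for wapl and barr, with several starts, are from the start nearest the IDR summit. With 1 group no test was run, counts stand beside the share of all genes, and libraries are given as mean ± SD. Named are the 10 genes, 19 related genes, genes at IDR summits in the windows and the next genes in signal. Members, lists and borders were chosen with earlier results of these data known. Counting was tested on simulated data (Python 3.11.15, pandas 2.3.3, numpy 2.4.6, matplotlib 3.10.9). Alternatives were distance, flank, list, counterpart and motif limits and each library left out. The details of 1 summit in a window are not reported here.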

Additional observations from a re-analysis of the deposited data

How the results depend on the processing

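Of the alternatives run on the main results, 45 were counted as about the same and 9 as moved. Being counted as the same did not always mean a small change. Related genes at 15 with the combined list and 8 without replicate 2, in place of 11, were so counted. So were 7 bound members in place of 9 with a library left out, and 73.6 summits per Mb in place of 95.6 with 10 kb flanks. With the upper 50% of IDR peaks by signal, the genes bound at a start site fell from 9 to 5 (SMC1, SA, SMC2 and barr were lost) and the IDR summits in the windows from 19 to 12, while the combined list gave 83. Without flanks, 2 genes, Nipped-B and barr, held a summit and the density was 20.3 per Mb. Within 50 bp of the summit, DRE or M1BP words remained at 1 gene in place of 3. Of the 19 related genes, 7 were bound when each summit went to its nearest start alone, a choice made after seeing the data. Leaving out each library in turn, and keeping IDR summits found in both others, gave 7 bound members each time (7 to 7), 7 to 9 related genes, 7 to 7 genes with a summit in the window, 14 to 15 summits, 7 to 7 recovered start-site summits, 2 to 3 genes with a DRE or M1BP word and 8.0 to 8.0 members per library. Without replicate 3 the related genes fell to 7 from 11, under a demand for both remaining libraries that the main count does not make. Lost were Cap-D2, eco, c(2)M and SMC5. Each of them lacked a start-site summit among the strongest peaks of replicate 1 or of replicate 2. No share of all genes is given here for the upper 50%, no flanks, the nearest start alone or a library left out. Those counts therefore do not show whether the distance from the background changed. The median percentile of the start-site peaks was 90.1 in the combined list and 91.4 in the list of replicate 2. No paired analysis was possible because there is 1 group.

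SMC1 and SA each rest on 2 libraries and vtd is weak in replicate 2. Read depth is unknown, so absence of a summit at SMC3 is absence from these lists only. The shared control alignment means that the libraries are not fully independent calls. Summits between divergent starts cannot be given to 1 gene, and summits in transposons depend on how repeated reads were placed.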
